A study of Homo sapiens with 12 samples.

Results

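SEM-K2 cells exposed to obatoclax at its EC50 were compared with SEM-K2 cells exposed to vehicle, over all genes. The comparison was chosen by its labels and held 4 of the 12 arrays of the series. These were 2 replicates of SEM-K2 with obatoclax at the EC50 and 2 replicates of SEM-K2 with vehicle. SEM-K2 is an established cell line of acute lymphoblastic leukaemia of B cell precursors that carries a fusion of KMT2A (MLL) with AFF1 (AF4). Obatoclax is a small molecule made to occupy the groove of the antiapoptotic BCL2 proteins. Cells were exposed for 6 h, at the concentration that gave a middle effect in a 72 h assay (EC50). Both groups share the fusion, the plating and the extraction. The concentration and the vehicle are not given in the sources used here, and the cells are 1 line. The remaining 8 arrays held SEM-K2 with obatoclax at 3 times that dose (3xEC50) and RS4:11, a line with the same fusion, with vehicle, EC50 or 3xEC50. Each group had 2 replicates, called biologic by the submitters, and p-values measure the spread between such samples.

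The antiapoptotic proteins of the BCL2 family bind BAX, BAK1 and the BH3-only proteins and so keep the outer mitochondrial membrane closed. Folliculin and its partners FNIP1 and FNIP2 act at the lysosome on the RAG GTPases, which pass nutrient signals to the kinase complex mTORC1 and control the entry of the factors TFEB and TFE3 into the nucleus. TFEB and TFE3 drive genes of lysosomes, and NF-kappaB drives genes of inflammation and survival together with its own inhibitors. B cell precursors move from an early stage that depends on the interleukin 7 receptor towards stages with a pre-B receptor and surface CD20.

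All values are GCRMA values on the log2 scale, 1 probe set per gene, and a value under 4 is called below the floor, where a level is not measured. Of 19775 genes with a named probe set, 10561 passed a filter of above 4 on at least 2 of the 12 arrays and were tested. On the 4 arrays, 8 of 9 named B cell precursor markers lay above the floor, among them PAX5, EBF1, CD79A and IGLL1, and DNTT lay below it. Of markers of other cells, 13 of 16 myeloid genes, 15 of 18 T and NK cell genes, 9 of 11 erythroid and megakaryocyte genes and 12 of 15 fibroblast and epithelial genes lay below the floor on all 4 arrays. Replicate arrays correlated at 0.994 or 0.996. For ACTB, a sign of RNA quality, the 3' minus the 5' control value ran from 1.02 to 1.23 (log2) on these 4 arrays, against 1.97 on SEM-K2 3xEC50 replicate 2, which is outside the comparison. Replicate pair 2 showed larger changes than pair 1, with an SD of 0.42 against 0.31 over genes and a median of 0.12 against -0.01. In RNA from whole cultures, fewer cells of a kind and less RNA per cell cannot be told apart.

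The comparison asks which transcripts of SEM-K2 cells differed after 6 h at the EC50. The actin regulator genes KANK1 and STARD13, the pore-forming death effector GSDME, the B cell surface protein gene MS4A1 (CD20), the lysosomal exporter gene SLC17A5 and the folliculin gene FLCN rose. The guidance ligand gene SEMA3A, the clock gene PER3 and the cytokine receptor gene IL7R fell. In all, 18 of 10561 genes were called at an adjusted p under 0.05 by limma (0.17%), 12 of them up (0.114%) and 6 down (0.0568%). Each of the 18 changed by at least 2-fold, and in each the EC50 arrays lay beyond both vehicle arrays. Among all genes, 0.871% were at least 2-fold higher and 0.294% at least 2-fold lower. Non-overlap alone was common, with 21.8% of genes above and 11.8% below. The unadjusted p was under 0.05 in 578 genes (3.97% of genes up and 1.51% down), against about 528 given by chance. The change was above 0 in 61.9% of genes and below 0 in 38.1%. With the replicate number as a block, 46 genes were called (0.436%), 33 up (0.312%) and 13 down (0.123%), and these included all 18.

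The 12-array fit borrows its spread from every array. The count became 17 without SEM-K2 vehicle replicate 1 (17 up and 0 down), 4 without vehicle replicate 2, 8 without EC50 replicate 1 and 3 without EC50 replicate 2. It was 13 without either SEM-K2 3xEC50 array, 9 without any 1 of the RS4:11 vehicle and EC50 arrays and 7 without either RS4:11 3xEC50 array. Most of the 18 lost their call without SEM-K2 vehicle replicate 1, so the 17 were for the most part other genes. Calls on KANK1, ENPP2 and CD1A held whichever 1 of the 12 arrays was left out. These 3 genes passed the filter through SEM-K2 obatoclax arrays alone. They lay below the floor on every RS4:11 array, and those arrays enter the shared spread. Their kept calls are thus no independent sign of stability. Fitted on the 6 SEM-K2 arrays or on the 4 compared here, KANK1 was the 1 gene called, and all 18 had an unadjusted p under 0.05 in the fit of 6.

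**Figure D1:**
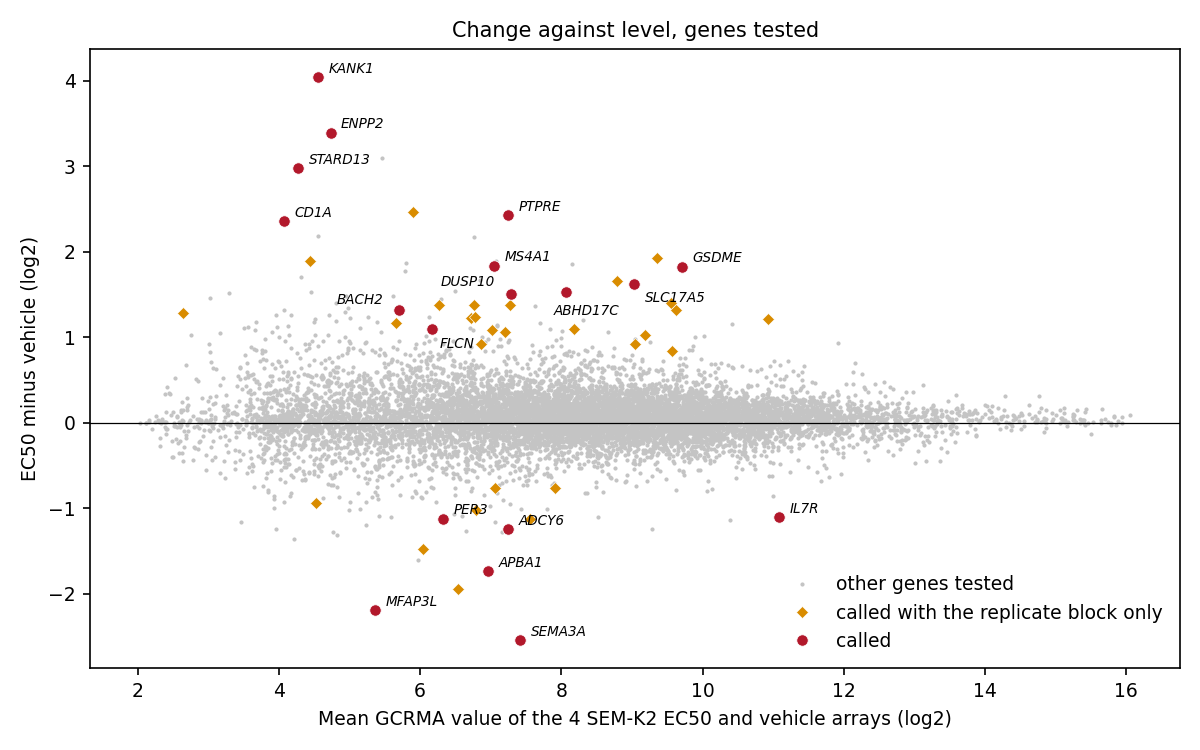
Change at EC50 over vehicle (log2, vertical) against the mean value of the 4 SEM-K2 EC50 and vehicle arrays (log2, horizontal), with 1 point per gene tested. Red points are the 18 called genes, gold points the 28 called with the replicate block only, and the called genes span from -2.54 for SEMA3A to 4.04 for KANK1.

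KANK1 encodes a scaffold protein that restrains actin assembly and links adhesions to microtubules. It had 6.61 and 6.55 on the EC50 arrays and 2.54 and 2.54 on the vehicle arrays. Both EC50 values were well apart from the vehicle values, which lay below the floor. KANK1 rose by at least 5.98-fold, with a log2 change of 4.04 ± 0.17 (± marks the SE of a log2 change, n = 2 each) and a limma adjusted p of 1.73e-05. Of its 3 probe sets, 1 lay above the floor. STARD13, which encodes a protein with a lipid-binding START domain, had 5.66 and 5.88 on the EC50 arrays and 2.80 and 2.76 on the vehicle arrays. Its vehicle arrays also lay below the floor, and STARD13 rose by at least 3.40-fold (2.98 ± 0.36, adjusted p = 0.0232 by limma). Of its 2 probe sets, 1 lay above the floor.

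The promoter table from RefSeq (GRCh38.p14), which gives 250 bases before to 50 after a gene's start, held 13 of the 18 called genes. STARD13 is shown because 1 of its 4 listed promoters holds CACGTG, the E-box that TFEB, TFE3 and the MYC and MAX pair are known to bind, at 61 bases before the start. The letters CACGTG read the same on both strands and are in capitals below. They occur in 7.26% of all 35116 promoters, in 9.7% of the 12726 promoters of genes tested and in 8% of the 25 promoters of called genes. The STARD13 window lies on the minus strand at chr13:33285781-33285846.
STARD13: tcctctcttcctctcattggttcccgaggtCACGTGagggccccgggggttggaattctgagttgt

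ENPP2 encodes autotaxin, the secreted enzyme that makes the signalling lipid lysophosphatidic acid. It had 6.91 and 5.95 on the EC50 arrays and 2.89 and 3.18 on the vehicle arrays. The vehicle level lay below the floor, and ENPP2 rose by at least 5.39-fold (3.39 ± 0.30, adjusted p = 0.00369 by limma). CD1A encodes a molecule that presents lipid antigens and is known from thymocytes and dendritic cells. It had 5.40 and 5.12 on the EC50 arrays and 2.61 and 3.19 on the vehicle arrays, a rise of at least 2.39-fold (2.36 ± 0.22, adjusted p = 0.00369). Markers of T, NK and myeloid cells were mixed in the same cultures. The mean level of 18 T and NK cell markers ran from 3.48 to 3.59 at EC50 and from 3.45 to 3.55 in vehicle. That of 16 myeloid markers ran from 3.26 to 3.38 at EC50 and from 3.31 to 3.37 in vehicle. CD3D, CD3E, CD2, CD14 and MPO were among the 15 T and NK cell and 13 myeloid markers below the floor on all 4 arrays, while LCK, ZAP70, NKG7, CSF1R and CEBPA were above it on all 4. NKG7, a protein of cytotoxic granules, had 9.27 and 8.53 on the EC50 arrays and 8.33 and 7.06 on the vehicle arrays, without overlap (1.21 ± 0.54, adjusted p = 0.922 by limma). ZAP70, a kinase of T cell receptor signalling, had 9.11 and 8.61 on the EC50 arrays and 9.48 and 9.20 on the vehicle arrays (-0.48 ± 0.22, adjusted p = 0.943), and CEBPA had 10.46 and 9.78 on the EC50 arrays and 10.20 and 9.15 on the vehicle arrays. Neither NKG7 nor ZAP70 was called, and the part of other cells in the change of CD1A was not tested.

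GSDME encodes gasdermin E, whose fragment, cut free by caspase 3, forms pores in the plasma membrane. It had 10.49 and 10.76 on the EC50 arrays and 8.74 and 8.85 on the vehicle arrays. The level was high in both groups and the groups were well apart, a rise of 3.55-fold (1.83 ± 0.17, adjusted p = 0.00369 by limma). GSDME kept its call without 3 of the 4 arrays and lost it without EC50 replicate 2. DUSP10, a phosphatase that switches off the stress kinases p38 and JNK, had 7.99 and 8.09 on the EC50 arrays and 6.69 and 6.37 on the vehicle arrays, a rise of 2.84-fold (adjusted p = 0.0321). PTPRE, a tyrosine phosphatase of signalling cascades, had 8.60 and 8.31 on the EC50 arrays and 6.42 and 5.64 on the vehicle arrays. It rose by 5.39-fold (2.43 ± 0.33, adjusted p = 0.0306), and 1 of its 3 probe sets lay above the floor. ABHD17C, an enzyme that takes palmitate off proteins, had 8.54 and 9.14 on the EC50 arrays and 7.47 and 7.14 on the vehicle arrays, a rise of 2.89-fold (adjusted p = 0.0346). In these 3 genes both EC50 arrays lay above both vehicle arrays.

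**Figure D2:**
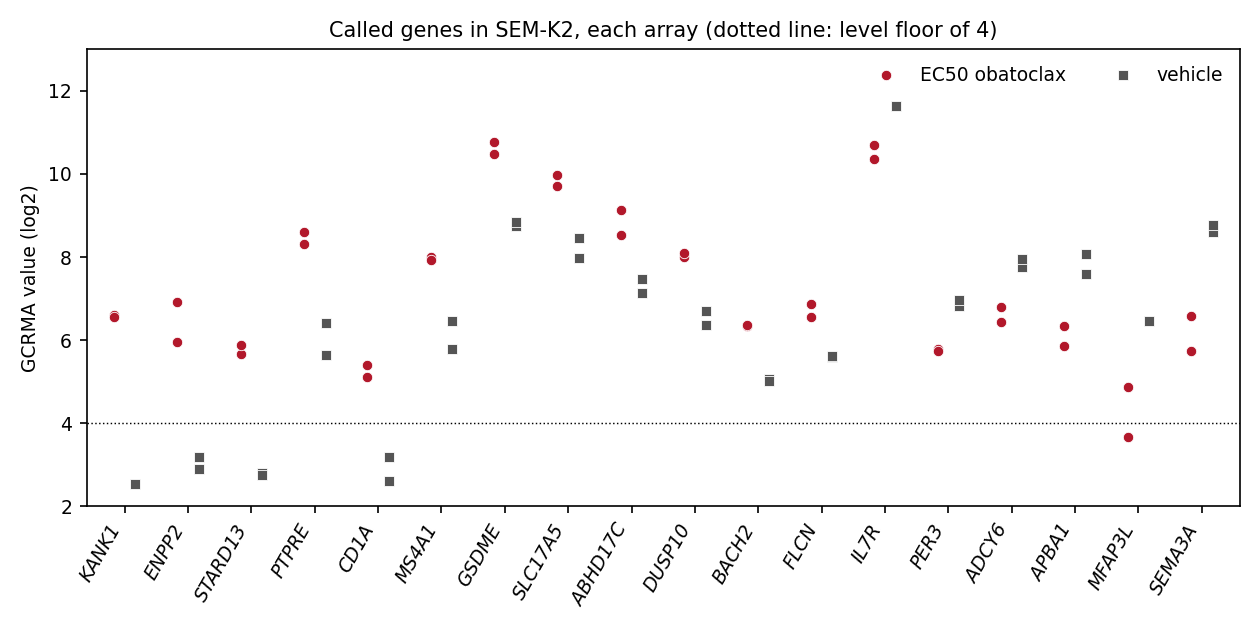
GCRMA value (log2, vertical) of the 18 called genes on each of the 4 arrays, with red circles for EC50 and grey squares for vehicle. The values of the groups do not overlap in any of the 18, and KANK1, ENPP2, STARD13 and CD1A lie below the dotted floor of 4 in vehicle.

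Genes of the B lineage moved in both directions. MS4A1, the gene of CD20, had 8.01 and 7.92 on the EC50 arrays and 6.46 and 5.79 on the vehicle arrays. The EC50 arrays agreed closely and the vehicle arrays were further from each other, and MS4A1 rose by 3.58-fold (1.84 ± 0.22, adjusted p = 0.0232 by limma). The other 3 probe sets of MS4A1 lay below the floor. BACH2, a repressor that acts at the pre-B receptor checkpoint, had 6.33 and 6.38 on the EC50 arrays and 5.06 and 5.01 on the vehicle arrays. It rose by 2.50-fold (adjusted p = 0.0285), and its other probe set showed a log2 change of 0.76. IL7R, the receptor chain for interleukin 7, had 10.69 and 10.36 on the EC50 arrays and 11.63 and 11.64 on the vehicle arrays. IL7R was among the more abundant transcripts of the line and fell by 1.10 ± 0.16 on the log2 scale (adjusted p = 0.0381), with -1.10 and -1.15 on its 2 probe sets. Its call rests on the whole set of 12 arrays and was lost without any 1 of them.

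Of 24 tested B cell surface receptors and adaptors, 1 was called up (MS4A1) and 1 down (IL7R), against 0.114% and 0.0568% of all genes tested. With the block 4 were called up and 1 down, against 0.312% and 0.123%. The median of this list was 0.18, with 16 members above 0. GPR18, a receptor of lymphocytes, had 7.35 and 6.93 on the EC50 arrays and 5.28 and 4.06 on the vehicle arrays (2.47 ± 0.38, adjusted p = 0.0549 without and 0.00480 with the block). CD40, the receptor for T cell help, had 6.33 and 6.14 on the EC50 arrays and 5.24 and 4.90 on the vehicle arrays (1.17 ± 0.25, adjusted p = 0.209 without and 0.0320 with the block). In both genes the EC50 arrays lay above the vehicle arrays in each pair. Of 11 tested genes of recombination and the pre-B receptor, 0 were called without the block, 2 had an unadjusted p under 0.05 and VPREB3 was called with it. VPREB3, which assists assembly of the pre-B receptor, had 6.95 and 7.73 on the EC50 arrays and 5.92 and 6.30 on the vehicle arrays (1.23 ± 0.43, adjusted p = 0.729 without and 0.0349 with the block). The fusion genes KMT2A (0.16 ± 0.25) and AFF1 (0.17 ± 0.17) were not called, nor were any of 28 targets of the KMT2A fusion (median 0.02, 0 with an unadjusted p under 0.05).

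Several named genes lay at the lysosome. SLC17A5 encodes sialin, which carries sialic acid out of lysosomes. It had 9.72 and 9.98 on the EC50 arrays and 8.47 and 7.97 on the vehicle arrays, and rose by 3.09-fold (1.63 ± 0.21, adjusted p = 0.0285 by limma), with 1.63 and 1.70 on its 2 probe sets. FLCN had 6.87 and 6.55 on the EC50 arrays and 5.59 and 5.63 on the vehicle arrays. The vehicle arrays were close together and the groups apart, and FLCN rose by 2.14-fold (1.10 ± 0.15, adjusted p = 0.0332). Its call was lost without any 1 of the 12 arrays. Probe sets of FLCN showed 0.35 to 1.37.

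The other members of the folliculin and RAG list were not called without the block. RRAGD, a RAG GTPase whose nucleotide state folliculin sets, had 8.71 and 8.74 on the EC50 arrays and 7.89 and 7.35 on the vehicle arrays (1.10 ± 0.28, adjusted p = 0.340 without and 0.0341 with the block). Members named next in this and the following lists, where they fall outside the naming rule, were chosen after their values were seen. FNIP2 had 9.17 and 9.39 on the EC50 arrays and 8.54 and 8.56 on the vehicle arrays (0.73 ± 0.14, adjusted p = 0.158). RRAGC had 8.73 and 8.94 on the EC50 arrays and 8.23 and 7.96 on the vehicle arrays (0.74 ± 0.17, adjusted p = 0.291). In FNIP2, RRAGC and FNIP1 the groups did not overlap, while LAMTOR2, a scaffold subunit for the RAG GTPases, showed -0.11. Of 14 members tested, 1 was called up, against 0.114% of all genes, and 13 lay above 0, against 61.9%. With the block 2 were called up, against 0.312%. An unadjusted p under 0.05 in the up direction was found in 5, against 3.97% of all genes. The median was 0.34, at 0.14 in pair 1 and 0.54 in pair 2, so the pairs differed here as they did over all genes, and the part of vehicle replicate 2 in this was not tested.

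Of 27 lysosomal hydrolases and membrane proteins tested, 24 lay above 0, with a median of 0.30, and 0 were called by limma with or without the block, while 7 had an unadjusted p under 0.05, all up, beside the same 61.9% and 3.97%. NEU1, a lysosomal sialidase, had 8.67 and 8.11 on the EC50 arrays and 7.73 and 6.86 on the vehicle arrays (1.10 ± 0.28, adjusted p = 0.349). ASAH1, the acid ceramidase, had 11.23 and 11.05 on the EC50 arrays and 10.47 and 10.55 on the vehicle arrays (0.63 ± 0.14, adjusted p = 0.264). In both the groups did not overlap. Of 13 proton pump subunits, 12 lay above 0 with a median of 0.29, and 1 had an unadjusted p under 0.05. Of 35 autophagy genes, 27 lay above 0 with a median of 0.13 (0.01 in pair 1 and 0.26 in pair 2). The cargo receptor gene SQSTM1 had 10.18 and 10.37 on the EC50 arrays and 9.60 and 9.25 on the vehicle arrays (0.85 ± 0.20, adjusted p = 0.291). Only 1 of its 3 probe sets above the floor rose, and the lowest change among its 5 probe sets was -0.07. The 25 tested genes of the mTOR complexes had a median of -0.06, with 10 above 0.

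The E-box CACGTG occurred in 21.1% of 19 promoters of the folliculin and RAG list, 29% of 31 of the lysosomal list and 30% of 10 of the proton pump list, against 9.7% of 12726 promoters of all genes tested. It also occurred in 36.1% of 36 promoters of ribosome biogenesis genes, whose changes ran the other way (median -0.22). FLCN, the called member of the folliculin and RAG list, was not among the genes with an E-box. The NF-kappaB consensus occurred in 26.3% of the same 19 promoters, FLCN included, against 13.2% of promoters of genes tested. RRAGC of the folliculin and RAG list and NEU1 of the lysosomal list are shown, with the E-box before the start in capitals. Both are on the minus strand, at chr1:38859849-38859914 and chr6:31862912-31862977 of GRCh38.p14, from RefSeq.
RRAGC: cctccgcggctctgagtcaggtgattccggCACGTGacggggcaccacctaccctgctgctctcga
NEU1: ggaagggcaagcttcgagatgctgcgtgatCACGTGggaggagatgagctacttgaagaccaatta

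NF-kappaB genes were mostly above 0, and 1 was called, with the block, where 0.312% of all genes were called up. CD83, a surface protein of activated B cells and dendritic cells, had 6.895 and 7.003 on the EC50 arrays and 5.62 and 5.52 on the vehicle arrays. Its replicates were close together and the groups apart (1.38 ± 0.22, adjusted p = 0.0739 without and 0.0129 with the block). TNFAIP3, the gene of the feedback inhibitor A20, had 8.06 and 7.65 on the EC50 arrays and 6.49 and 4.88 on the vehicle arrays. The vehicle arrays of TNFAIP3 lay far from each other, and it was not called (2.17 ± 0.41, adjusted p = 0.130 without and 0.0565 with the block). NFKBIA, the inhibitor that keeps NF-kappaB in the cytoplasm, had 9.56 and 9.23 on the EC50 arrays and 8.95 and 8.24 on the vehicle arrays (0.80 ± 0.24, adjusted p = 0.547). Of 21 members tested, 19 lay above 0 and 6 had an unadjusted p under 0.05, all up, against 61.9% and 3.97% of all genes. The list median was 0.42, at 0.28 in pair 1 and 0.47 in pair 2. The subunit gene RELA (0.04 ± 0.15) and the kinase gene IKBKB (-0.13 ± 0.15) were near 0.

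**Figure D3:**
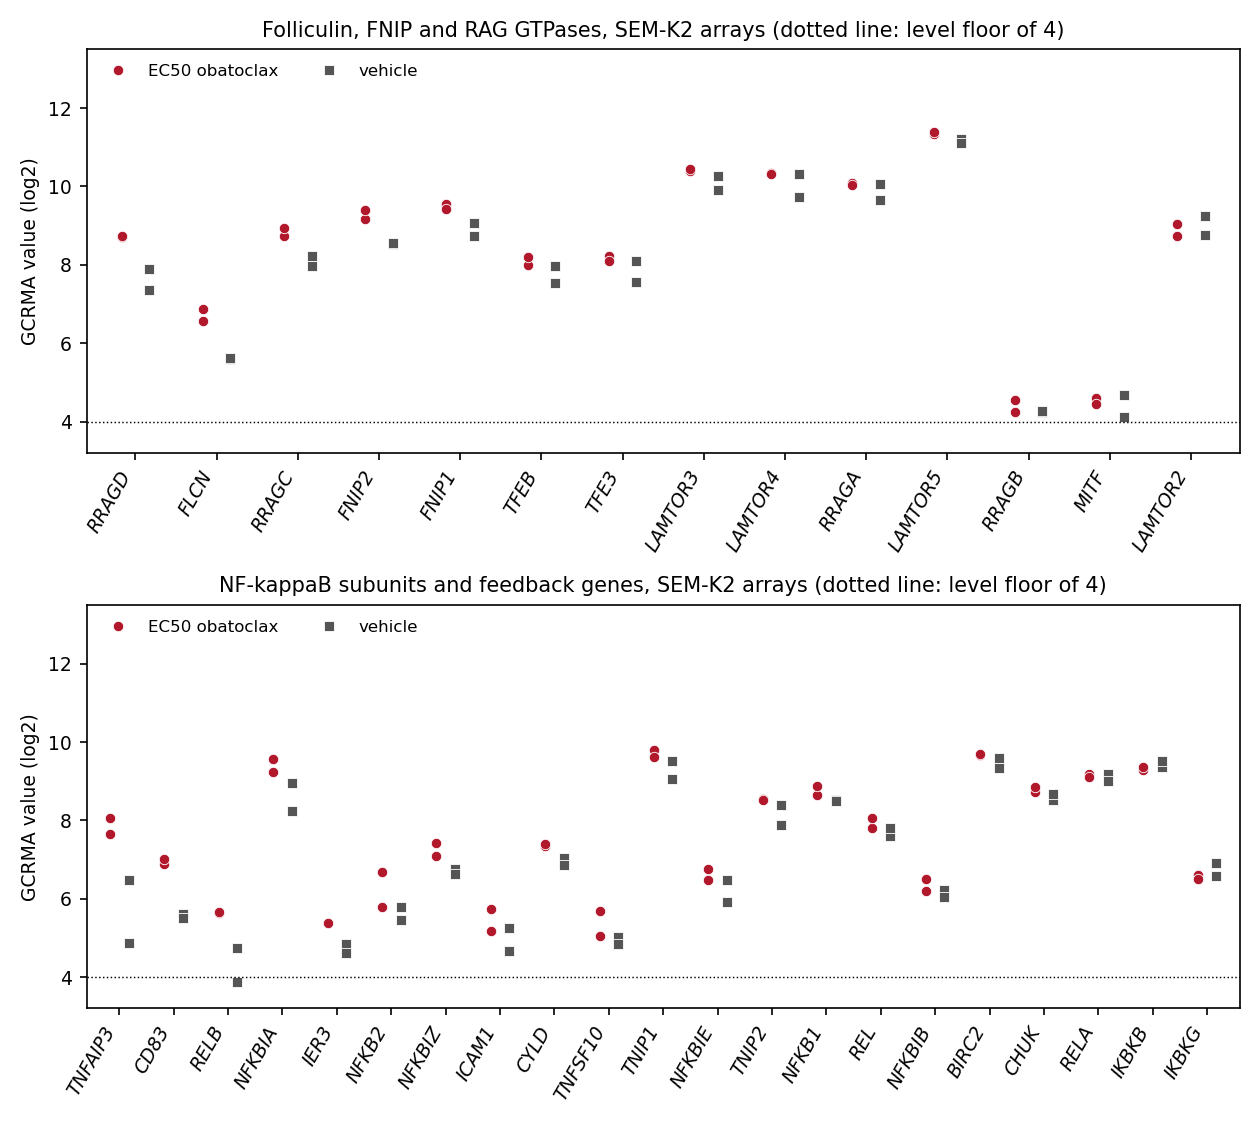
GCRMA value (log2, vertical) on each EC50 array (red circles) and vehicle array (grey squares) of SEM-K2 for the 14 tested members of the folliculin and RAG list and the 21 of the NF-kappaB list, ordered by change. FLCN, FNIP2 and CD83 have vehicle replicates close together and below both EC50 arrays, while the vehicle replicates of TNFAIP3 lie at 6.49 and 4.88.

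The NF-kappaB consensus, searched on both strands, occurred in 41.9% of 31 promoters of the NF-kappaB list, against 11.3% of all promoters and 13.2% of those of genes tested. Among the 25 promoters of the called genes it occurred in 16%. Windows of CD83, TNFAIP3 and NFKBIA are shown because these 3 members had the smallest p-values of the list, with matches in capitals. In CD83 the 6 matches, some of which overlap, fall in separate stretches. The windows lie at chr6:14117608-14117761 (plus strand), chr6:137867162-137867243 (plus strand) and chr14:35404791-35404860 (minus strand) of GRCh38.p14, from RefSeq.
CD83: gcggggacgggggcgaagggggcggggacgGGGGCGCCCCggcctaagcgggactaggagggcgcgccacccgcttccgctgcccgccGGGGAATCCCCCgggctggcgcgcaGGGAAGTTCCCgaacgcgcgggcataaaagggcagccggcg
TNFAIP3: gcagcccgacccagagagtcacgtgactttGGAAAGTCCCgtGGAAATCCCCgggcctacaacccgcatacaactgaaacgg
NFKBIA: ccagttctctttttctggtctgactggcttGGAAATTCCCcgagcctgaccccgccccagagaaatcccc

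Interferon-stimulated genes had 24 of 27 tested members above 0, a median of 0.31 (0.30 in pair 1 and 0.55 in pair 2) and 8 with an unadjusted p under 0.05, all up (61.9% and 3.97% of all genes). None was called by limma with or without the block. USP18, which restrains the interferon receptor, had 8.04 and 7.99 on the EC50 arrays and 6.85 and 5.40 on the vehicle arrays (1.89 ± 0.40, adjusted p = 0.209). HERC5, the ligase for the modifier ISG15, had 9.49 and 9.21 on the EC50 arrays and 8.68 and 8.54 on the vehicle arrays (0.74 ± 0.16, adjusted p = 0.217). OAS3, which senses double-stranded RNA, had 7.53 and 7.51 on the EC50 arrays and 6.91 and 6.92 on the vehicle arrays (0.61 ± 0.13, adjusted p = 0.251). OAS3 had the closest replicates of these 3, and in each the groups did not overlap. The core of the interferon-stimulated response element was searched on both strands. It occurred in 55.6% of 27 promoters of the list, against 3.57% of all promoters and 3.03% of those of genes tested. OAS3 is shown for its small spread, with 2 matches in capitals, at chr12:112938301-112938473 (plus strand) of GRCh38.p14, from RefSeq.
OAS3: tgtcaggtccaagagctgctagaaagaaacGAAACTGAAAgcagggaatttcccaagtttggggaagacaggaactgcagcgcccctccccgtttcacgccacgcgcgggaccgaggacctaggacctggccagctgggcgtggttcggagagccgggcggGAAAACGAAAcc

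The drug's own targets showed no call. BCL2 had 10.96 and 10.90 on the EC50 arrays and 10.70 and 10.80 on the vehicle arrays (0.18 ± 0.13, adjusted p = 1.00). MCL1, the short-lived antiapoptotic member, had 11.20 and 11.07 on the EC50 arrays and 11.33 and 11.21 on the vehicle arrays (-0.14 ± 0.17, adjusted p = 1.00). Each of these changes was under 2 times its SE. BCL2L1 (BCL-XL) had 6.23 and 5.37 on the EC50 arrays and 6.00 and 5.41 on the vehicle arrays, with an SE of 0.72 that limits what can be said of it. BCL2L2 showed 0.18 ± 0.22, and BCL2A1 did not pass the filter. Of 12 tested genes for BAX, BAK1 and the BH3-only proteins, 7 lay above 0 with a median of 0.21, and BAD alone had an unadjusted p under 0.05 (-0.47 ± 0.17). All 3 probe sets of BAD lay above the floor, only 1 of them fell, and the highest change among them was 0.45. The effectors BAX (0.33 ± 0.70) and BAK1 (-0.06 ± 0.25) overlapped between groups.

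Stress genes were split by group. Of all genes, 61.9% lay above 0, and 3.97% were up and 1.51% down at an unadjusted p under 0.05 by limma. Of 15 tested effectors around CHOP and ATF3, 13 lay above 0 with a median of 0.33, at 0.04 in pair 1 and 0.59 in pair 2. An unadjusted p under 0.05 was found in 5 of them, all up. DDIT3, the CHOP gene, had 8.33 and 7.97 on the EC50 arrays and 7.46 and 7.32 on the vehicle arrays (0.76 ± 0.22, adjusted p = 0.526). PPP1R15A, which restores translation after stress, had 7.39 and 7.52 on the EC50 arrays and 6.87 and 6.08 on the vehicle arrays (0.98 ± 0.25, adjusted p = 0.340). Genes that the same pathway is known to drive for amino acid supply did not share this sign. Of 17 cytosolic tRNA synthetases, 4 lay above 0 (median -0.15), and of 20 amino acid transporter and synthesis genes, 7 (median -0.11). Heat shock genes had 2 of 15 above 0 (median -0.05) and ribosome biogenesis genes 6 of 33 (median -0.22), in which RRS1, a ribosome assembly factor, had 10.27 and 10.61 on the EC50 arrays and 10.76 and 11.04 on the vehicle arrays (-0.46 ± 0.19, adjusted p = 0.853). By limma 0 members of these 5 lists were called with or without the block, and beside DDIT3, PPP1R15A and 3 others of the first list, RRS1 alone had an unadjusted p under 0.05.

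**Figure D4:**
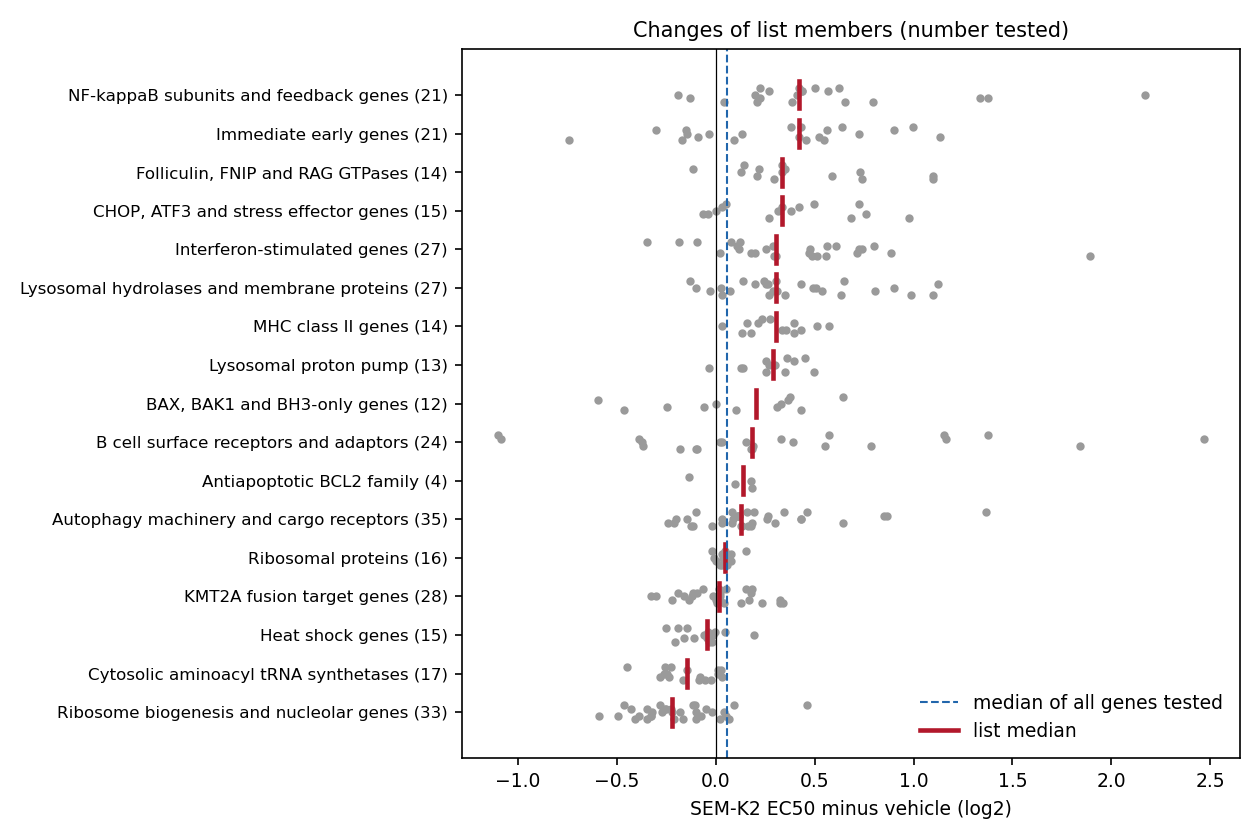
Change at EC50 over vehicle (log2, horizontal) of each tested member (grey points) of 17 gene lists, with the list's median in red and the median of all genes tested (0.05) as a dashed line. Medians run from 0.42 for NF-kappaB genes to -0.22 for ribosome biogenesis genes.

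BHLHE40, a clock and hypoxia repressor, was not called. It had 7.81 and 6.19 on the EC50 arrays and 5.15 and 2.67 on the vehicle arrays (3.09 ± 0.80, adjusted p = 0.372 without and 0.0651 with the block). Its vehicle mean of 3.91 lay below the floor, so that the fitted change has no measured base and the EC50 mean was at least 5.38-fold above it. The EC50 arrays lay above the vehicle arrays, and the spread within each group was wide. ENO2, a glycolytic enolase with 1 vehicle array below the floor, had 7.14 and 6.35 on the EC50 arrays and 5.92 and 3.81 on the vehicle arrays (1.87 ± 0.56, adjusted p = 0.539). Of 32 tested glycolysis and hypoxia genes, 28 lay above 0 with a median of 0.18, where 61.9% of all genes lay above 0.

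Among the falls, SEMA3A, a secreted ligand of neuropilins and plexins, had 6.57 and 5.73 on the EC50 arrays and 8.59 and 8.78 on the vehicle arrays. It fell by 2.54 ± 0.34 on the log2 scale (5.79-fold, adjusted p = 0.0306 by limma), and its 2 probe sets above the floor were both lower at EC50. MFAP3L, a membrane protein gene, had 4.87 and 3.68 on the EC50 arrays and 6.47 and 6.45 on the vehicle arrays (-2.18 ± 0.32, adjusted p = 0.0428). One EC50 array of MFAP3L lay below the floor. APBA1, an adaptor of the amyloid precursor protein, had 6.35 and 5.85 on the EC50 arrays and 8.07 and 7.60 on the vehicle arrays (-1.73 ± 0.23, adjusted p = 0.0306), and its other probe set showed -0.41. ADCY6, an adenylate cyclase, had 6.80 and 6.45 on the EC50 arrays and 7.77 and 7.96 on the vehicle arrays (-1.24 ± 0.17, adjusted p = 0.0306). PER3, a repressor of the circadian clock, had 5.80 and 5.74 on the EC50 arrays and 6.82 and 6.95 on the vehicle arrays (-1.12 ± 0.16, adjusted p = 0.0346). PER3 was the 1 called gene of 16 tested clock genes, which had a median of 0.02, where 0.0568% of all genes were called down. Of the 4 probe sets of PER3, 1 lay above the floor and fell. The groups were apart in each of these falls, and all 6 falls, IL7R included, were lost without SEM-K2 vehicle replicate 1 or 2.

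Beyond the 18, the block added 28 genes, 21 up and 7 down. RGS1, a regulator that shortens G protein signals in B cells, had 10.39 and 10.24 on the EC50 arrays and 8.53 and 8.24 on the vehicle arrays (1.93 ± 0.34, adjusted p = 0.102 without and 0.00590 with the block). CAPG, an actin-capping protein, had 10.44 and 10.05 on the EC50 arrays and 9.18 and 8.51 on the vehicle arrays (1.40 ± 0.26, adjusted p = 0.125 without and 0.00991 with the block). Both showed nearly the same change in each pair, at 1.86 and 2.00 for RGS1 and 1.26 and 1.54 for CAPG. The block favours genes whose pairs changed alike, so this likeness is no separate support for their calls. C1orf115 lay below the floor in vehicle and was at least 2.63-fold higher at EC50 (adjusted p = 0.158 without and 0.0313 with the block). PAG1, a membrane adaptor of SRC family kinases (1.38), CST7, an inhibitor of lysosomal cathepsins (1.66), WDFY1 (1.02), SORL1, a sorting receptor (1.07), and WDSUB1 (0.84) were the other rises named by the rule, with adjusted p-values of 0.0144 to 0.0282 with the block. Without the block their adjusted p-values by limma ran from 0.102 for WDFY1 to 0.831 for SORL1. The falls were ADAMTS17, a metalloprotease gene (-1.47, adjusted p = 0.21 without and 0.00480 with the block), and KLHL14 (-1.94, adjusted p = 0.130 without and 0.00624 with the block). In all 46 genes the EC50 and vehicle arrays did not overlap, as in 21.8% of all genes above and 11.8% below. The 46 were called on these same values and the naming rule required non-overlap, so it is no separate support.

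SEM-K2 at 3xEC50 was set against the same vehicle arrays, so the changes at the doses are given side by side and are not independent. At EC50 and 3xEC50, KANK1 showed 4.04 and 4.45, GSDME 1.83 and 2.21, MS4A1 1.84 and 2.25, SLC17A5 1.63 and 1.95, FLCN 1.10 and 1.38, and BACH2 1.32 and 2.01. For the falls, IL7R showed -1.10 and -1.31, SEMA3A -2.54 and -3.04, and PER3 -1.12 and -1.17. The other 3 falls were smaller at 3xEC50, with -1.24 and -1.20 for ADCY6, -1.73 and -1.65 for APBA1 and -2.18 and -2.02 for MFAP3L. Of the 18 genes, 15 had the larger change at 3xEC50. At 3xEC50, 87 genes were called (0.824%). The direct test of 3xEC50 minus EC50, which does not use the vehicle arrays in its means, called 0 genes by limma (0%), with a smallest adjusted p of 0.188, and 234 genes had an unadjusted p under 0.05 (2.22%). It called 36 genes without SEM-K2 3xEC50 replicate 1, which leaves the array with the high ACTB difference to stand for that dose, and 1 without EC50 replicate 2.

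RS4:11 had its own vehicle arrays. At EC50, 0 genes were called there by limma (0%), with 444 at an unadjusted p under 0.05 (4.2%) and a smallest adjusted p of 0.224. FLCN had 6.26 and 6.20 on the RS4:11 EC50 arrays and 5.25 and 5.08 on the RS4:11 vehicle arrays, a change of 1.06 ± 0.15 beside 1.10 in SEM-K2. The change in FLCN differed between the lines by 0.03 ± 0.22. GSDME had 10.52 and 10.59 on the RS4:11 EC50 arrays and 9.73 and 9.60 on the RS4:11 vehicle arrays (0.89 ± 0.17), and SLC17A5 showed 0.92 ± 0.21. The line difference at EC50, SEM-K2 minus RS4:11, was called by limma in KANK1 alone (0.00947% of genes), at 3.92 ± 0.25 with an adjusted p of 0.000528. KANK1 was below the floor on all 6 RS4:11 arrays, with a highest value of 2.59.

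ENPP2 (line difference 3.45 ± 0.42, adjusted p = 0.0768), CD1A (2.34 ± 0.31, adjusted p = 0.0981), STARD13 (3.11 ± 0.51, adjusted p = 0.326) and MS4A1 (1.89 ± 0.31, adjusted p = 0.326) did not pass this test. On every RS4:11 array they were below the floor, as were SEMA3A and MFAP3L, and such arrays enter the shared spread, so the p-values of these 7 genes, KANK1 included, may be too small. Among the called genes, 4, namely KANK1, STARD13, ENPP2 and CD1A, belonged to 53 genes that passed the filter through SEM-K2 obatoclax arrays alone, so a difference was built into their selection. The CHOP and ATF3 list had a median of -0.28 in RS4:11 beside 0.33 in SEM-K2, and DDIT3 showed -0.28 there beside 0.76. The difference in DDIT3 was not called.

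**Figure D5:**
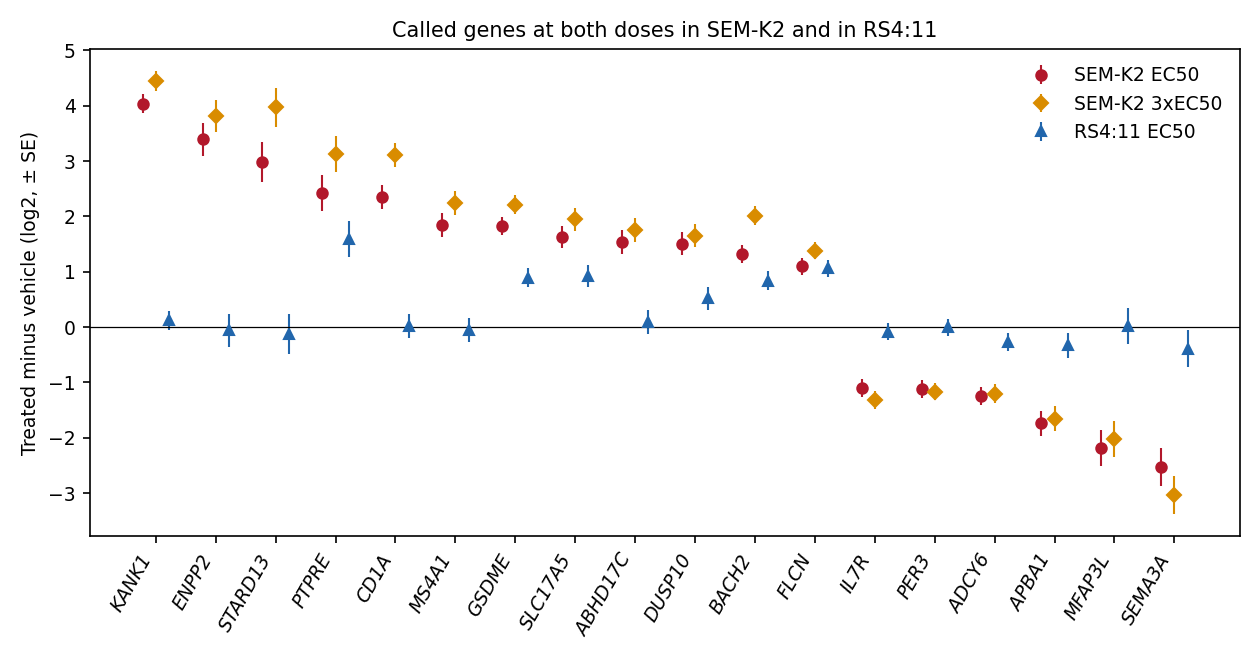
Treated minus vehicle (log2, vertical, points with SE bars) of the 18 called genes for SEM-K2 at EC50 (red circles), SEM-K2 at 3xEC50 (gold diamonds) and RS4:11 at EC50 (blue triangles). KANK1 is at 4.04, 4.45 and 0.12 in this order and FLCN at 1.10, 1.38 and 1.06; both SEM-K2 doses share their vehicle arrays.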

How the data were processed

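RNA of 12 cultures was measured on Affymetrix U133 Plus 2 arrays, and 4 arrays form the comparison. The authors processed the scans with GCRMA (version not given), per the submitters' processing notes, which corrects background and normalises by quantiles. Their scale is not stated. A range of 0.64 to 16.22 led to the deposited numbers being taken as log2. Precision is limited by how many arrays each group has.

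Of 54675 probe sets, 41097 had 1 gene symbol in GEO's platform annotation, 1801 had several and were left unnamed, and 11777 were not listed there. A gene took its probe set with the highest mean over the 12 arrays. Genes above 4 on at least 2 arrays were tested with limma 3.58.1 in R 4.3.3 (lmFit and eBayes, 6 group means, 6 residual and 3.27 prior degrees of freedom). P-values were adjusted by Benjamini-Hochberg over 10561 genes and called under 0.05. The fit was tested on simulated data. Deviations of same-numbered replicates from their group means correlated above 0.1 in all 15 pairs of groups (0.19 to 0.60, and 0.38 for SEM-K2 EC50 with vehicle), so the numbers pair the samples, from the data and not the labels, and blocked values are given where they change a call.

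The comparison, the 44 gene lists (1006 genes, 769 tested) and the naming rule were chosen with earlier results of these data known. Lists that the text does not describe are not reported here. The rule named all called genes without overlap, the 12 next by p with the block, of each list the called members or else the 2 with the smallest p, and the BCL2 family and fusion genes. For an "at least" fold, where a group mean lay under the floor, each array of that group under 4 was set to 4 before averaging. Alternatives covered the block, the arrays fitted, the probe set, the filter, the variance prior, centring and each array left out. Motifs were searched with Python 3.11.15 in RefSeq promoters.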

Additional observations from a re-analysis of the deposited data

Results flagged for a closer look

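The response of KANK1 differed between the lines at EC50. The change was 4.04 in SEM-K2 and 0.12 in RS4:11, a difference of 3.918 (SEM-K2 minus RS4:11, log2), called by limma with an adjusted p of 0.000528. KANK1 was below the floor in SEM-K2 vehicle (2.54) and on all 6 RS4:11 arrays, so the size of the difference has no measured base and its p may be too small. It is among the 53 genes that passed the filter through SEM-K2 obatoclax arrays alone, so a difference was built into its selection.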

How the results depend on the processing

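The count of 18 called genes was 46 with the replicate block and 70 with a replicate block within each line, 1 in fits of only the 6 SEM-K2 arrays, of those 6 with the replicate block and of only the 4 SEM-K2 EC50 and vehicle arrays, 11 when a gene's probe sets were averaged and 8 with no filter. Fewer arrays leave fewer residual degrees of freedom, and no filter tests more genes. Other causes were not tested. The block kept all 18 calls and added 28, and those of the 28 outside the naming rule are not named in the report. Among them, IFNLR1 lay below the floor in both groups. With the block, the line difference still called 1 gene and 3xEC50 minus EC50 called 0. Leaving out 1 array gave 3 to 17 genes for SEM-K2 EC50 minus vehicle, 1 to 4 for the line difference and 0 to 36 for 3xEC50 minus EC50. The line difference called 2 genes with the block within each line, with averaged probe sets and with no filter, and 3xEC50 minus EC50 called 3 with no filter. Of the 18 genes none changed direction under any alternative run. Among uncalled genes, averaging probe sets turned BAD to 0.0944 and KMT2A to -0.141. Leaving out 1 array turned others, with ranges of -0.495 to 0.000479 for CASP9 (positive without EC50 replicate 2), -0.332 to 0.522 for BCL2L1 (-0.203 without vehicle replicate 2, lowest without EC50 replicate 1) and -0.272 to 0.153 for BAK1 (0.138 without vehicle replicate 1, highest without EC50 replicate 1). Negative values without vehicle replicate 2 gave ranges of -0.0493 to 0.713 for BAX, -0.0305 to 0.489 for MT1F, -0.0406 to 0.341 for RPL30, -0.00247 to 0.154 for RPL8, -0.0403 to 0.662 for CDC25C and -0.077 to 0.974 for CEBPA. Levels below the floor give bounds alone.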

Other observations

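Genes of antigen presentation by MHC class II had small positive values throughout in SEM-K2 at EC50. All 14 tested members lay above 0, with a median of 0.30 (0.16 in pair 1 and 0.38 in pair 2), where 61.9% of all genes lay above 0, and 0 were called by limma while 2 had an unadjusted p under 0.05. RFX5, which binds the promoters of these genes, had 11.02 and 11.03 on the EC50 arrays and 10.75 and 10.63 on the vehicle arrays (0.33 ± 0.14, adjusted p = 0.877). HLA-DQA1 had 7.04 and 7.20 on the EC50 arrays and 6.84 and 6.38 on the vehicle arrays (0.51 ± 0.22, adjusted p = 0.891). In RFX5 and HLA-DQA1 the groups did not overlap, as in 4 of the 14 members, where 21.8% of all genes did so in this direction.

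The lists of DNA replication and mitosis genes had medians above that of all genes (0.05), with 0 members called by limma. At an unadjusted p under 0.05 there were 2 DNA replication genes (CDT1 and CCNE2) and 0 mitosis genes. Of 29 DNA replication genes 26 lay above 0 with a median of 0.14, and of 28 mitosis genes 24 with a median of 0.13 (-0.03 in pair 1 and 0.30 in pair 2). The share above 0 was 61.9% over all genes. CDT1, which licenses replication origins, had 10.15 and 9.98 on the EC50 arrays and 9.65 and 9.10 on the vehicle arrays (0.69 ± 0.26, adjusted p = 0.788). MYC had 12.79 and 12.77 on the EC50 arrays and 13.27 and 13.22 on the vehicle arrays (-0.46 ± 0.19, adjusted p = 0.853). Its replicates were close together and the groups did not overlap, and the change was not called.

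Lists of other pathways had 0 members called by limma with or without the block. Immediate early genes had 14 of 21 tested members above 0 and a median of 0.42 (0.13 in pair 1 and 0.63 in pair 2), with 3 up and 1 down at an unadjusted p under 0.05. SGK1, a kinase induced by serum, had 8.228 and 7.9997 on the EC50 arrays and 9.10 and 8.62 on the vehicle arrays (-0.74 ± 0.22, adjusted p = 0.542). JUND, a subunit of the AP-1 factor, had 11.60 and 11.54 on the EC50 arrays and 11.17 and 10.53 on the vehicle arrays (0.72 ± 0.29, adjusted p = 0.831). Of all genes, 61.9% lay above 0. Cholesterol and fatty acid synthesis genes had 19 of 27 above 0 (median 0.15), respiratory chain subunits 25 of 28 (0.11) and necroptosis and death receptor genes 12 of 13 (0.21). The respiratory chain median was -0.09 in pair 1 and 0.25 in pair 2, so the pairs differed in sign. That of necroptosis and death receptor genes was 0.07 in pair 1 and 0.41 in pair 2. Caspase and apoptosome genes had 9 of 15 above 0 (median 0.03), p53 targets 11 of 16 (0.05), FOXO and insulin feedback genes 9 of 17 (0.03), metallothioneins and zinc response genes 6 of 10 (0.06) and NRF2 targets 8 of 14 (0.0084). Genes of endoplasmic reticulum chaperones and the unfolded protein response had 12 of 27 above 0, with a median of -0.07. At an unadjusted p under 0.05 these 9 lists held 2 cholesterol and fatty acid synthesis genes, 1 FOXO and insulin feedback gene and 1 unfolded protein response gene up, and 1 p53 target, 1 zinc response gene and 1 NRF2 target down.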
